A study of Homo sapiens with 32 samples.

Results

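The set comprises 82 gene features whose counts moved to the same side under tamoxifen in LNCaP cells carrying a neutral and a repressive androgen response element construct. They were found among 57773 features of the count table. Counts were divided by the total of each library and multiplied by 1000000 (CPM, the share of a library in parts per 1000000), and a ratio was taken of the mean CPM of 4 tamoxifen libraries over that of 4 vehicle libraries. A feature was a member when its mean was at least 40 CPM under vehicle in both the neutral and the repressive line, when both ratios were 0.7 or less or both were 1.4 or more, and when the ratio in the activating line lay between 0.67 and 1.5 or on the same side. C7orf49, TBPL1, mitochondrial features and names ending in AS and digits were left out by name. Of 1759 features at 40 CPM or more, 80 members were lower and 2, MIPOL1 and RP11-618K13.2, were higher. The split depends on the scaling: with TMM, which sets libraries on their common features, 57 features met the rule, 37 lower and 20 higher, and 39 of them were members. The members were chosen by these measured ratios and vehicle levels of the neutral, repressive and activating lines, so those values are given as a description and without a test.

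LNCaP is an established human prostate cancer cell line of luminal type. The constructs, named modifiers of ARE containing chromatin (MACC), fuse the DNA binding domain of the androgen receptor to an ERT2 domain that moves to the nucleus with tamoxifen. The Neutral MACC carries a 3X FLAG tag only, the Repressive MACC adds a KRAB domain and the Activating MACC adds a VP64 domain. The 3 construct lines were made by lentiviral transduction and kept under blasticidin, which the labels give for these lines only, so the construct and the selection cannot be told apart. Each line received 2.5 µM tamoxifen or vehicle for 48 h in 4 biological replicates, which gave 8 groups and 32 RNA-seq libraries. Tamoxifen was present in every induced group and absent from every vehicle group, and the parental line is the only one in which tamoxifen acted without a construct.

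The androgen receptor binds a paired DNA motif, and androgen response elements (AREs) carrying it lie in enhancers and promoters of prostate genes. KRAB domains recruit complexes that silence chromatin, whereas VP64 recruits the transcription machinery. A construct with neither domain still holds the DNA binding domain and the tamoxifen-binding domain, and is commonly used as the reference for the other forms.

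Library totals ran from 454996 to 1164823 estimated counts, with a median of 669938. The first neutral tamoxifen library stood apart, with the highest total and 50.4% of its counts in its 20 most abundant features, against 32.5% to 49% in the others. All 10 markers of luminal prostate cells on the list used here had counts in all 32 libraries, whereas TP63 (basal) and COL1A2 (fibroblast) were at 0 throughout. Of the other markers of basal, neuroendocrine and fibroblast cells, KRT14, CHGA, SYP, COL1A1 and VIM had at most 4 counts in any library. KRT5, a basal keratin, had 63.2 to 86.8 CPM in the 4 activating tamoxifen libraries and was at 0 in the other 28. The kit kept the strand of the RNA, but the strand setting of the counting is not given in the sources used here. Of the counts on annotated features, 80.9% lay on features with exons that overlap those of a gene on the opposite strand, and 23.0% of features were of this kind. GAPDH, a glycolytic enzyme gene that is abundant in most cells, had a mean of 97.5 CPM, and RP5-940J5.9 on the opposite strand had 25745 CPM. MT-ND6, which alone among the mitochondrial protein genes is encoded on the light strand, had 6817 CPM, against a median of 233 CPM for the other 12. TUBA1B and FTH1, also abundant in most cells, had 17.5 and 28.5 CPM, and RP11-386G11.10 and BEST1 opposite them had 69696 and 38111 CPM. ACTB, RPLP0, HSP90AB1, PKM and LDHA, with no gene of the table opposite their exons, had 56.2, 26.7, 44.4, 22.8 and 9.01 CPM. These genes thus had few counts under their own names and many under the name of the opposite feature where there was one. A member's name may therefore stand for reads of the gene on the opposite strand, and the functions given below are those of the named gene, as background, and may not be those of the RNA that was counted.

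Among the members found in the annotation, 63 of 79 (79.7%) overlapped exons on the opposite strand, against 88.2% of all features at 40 CPM or more. The 16 members without such an overlap were MIPOL1, GLYATL1P2, CICP16, CSPG4P12, AP000525.10, RP13-608F4.5, FAM215B, RP11-54O7.3, CPLX1, FAM160B2, TOMM70A, RP3-337H4.8, LRRC8A, MAN1B1, AKR7L and AC069282.6.

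Sequences are shown for the members where sequence bears on how the counts can be read. Members of the CSPG4P family, pseudogene copies related to the chondroitin sulfate proteoglycan gene CSPG4, were at the top of the set and share most of their sequence. CSPG4P8, CSPG4P9 and CSPG4P10 shared 97.6% to 100% of their 31-base words with each other, and CSPG4P12 shared 91.9% to 93.1% of its own with them. In the other direction they shared 60.6% to 62.4% of theirs with CSPG4P12. A 100-base stretch of CSPG4P12 exon is printed from the GRCh37 genome with the matching stretch of the other copies, each on its gene's strand, at chr15:85737941-85738040 (+), chr15:82754887-82754986 (+), chr15:82984889-82984988 (-) and chr15:83131473-83131572 (+). Capitals mark the bases unlike CSPG4P12.
CSPG4P12: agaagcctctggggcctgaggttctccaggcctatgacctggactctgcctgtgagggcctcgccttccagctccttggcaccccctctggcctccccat
CSPG4P8: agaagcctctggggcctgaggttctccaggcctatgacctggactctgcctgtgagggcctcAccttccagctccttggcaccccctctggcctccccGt
CSPG4P9: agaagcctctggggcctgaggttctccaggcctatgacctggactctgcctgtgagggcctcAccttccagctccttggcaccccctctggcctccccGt
CSPG4P10: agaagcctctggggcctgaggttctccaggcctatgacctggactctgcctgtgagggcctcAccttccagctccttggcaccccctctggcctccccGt
CSPG4P8, CSPG4P9 and CSPG4P10 did not differ from each other in this stretch, and each differed from CSPG4P12 at 2 bases. A read of this stretch that spans none of these bases cannot be assigned to a single copy. A read that spans them only separates CSPG4P12 from the other copies. The sum over the copies is therefore the firmer value.

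The androgen receptor motif was searched in windows from 250 bases before to 50 bases after each gene's start, on both strands of GRCh37. The core AGAACA lay in 9 of 79 members' windows (11.4%), against 219 of 1638 windows of all features at 40 CPM or more (13.4%). The paired motif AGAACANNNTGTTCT, which holds the core on each strand, lay in the window of 1 member, RGL4, and of 2 features in all, the other being RP11-1079K10.4. RGL4 encodes a relative of the guanine exchange factors of Ral GTPases. Its match lay 22 to 36 bases after the annotated start, at chr22:24030338-24030364 (+) with its flanks, and is shown with the motif in capitals.
RGL4: ctcgagAGAACAACATGTTCTcctgct
The paired motif lay in 0 of 63 windows of genes opposite a member and in 0 of the 1460 opposite windows of all features. The core lay in 9 of these 63 windows (14.3%), against 10.5% of the 1460. These matches are letters in a window and no evidence of binding.

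Summed over the 80 lower members, CPM was lower under tamoxifen in each construct line and overlapped between treatments in the parental line. Their summed CPM in the 4 neutral vehicle libraries was 10767, 10704, 10263 and 10296, and in the neutral tamoxifen libraries 5133, 6004, 6579 and 7088. In the repressive line it was 11659, 11992, 11196 and 10555 under vehicle and 6457, 6031, 5112 and 6406 under tamoxifen. No tamoxifen library of these lines reached the lowest vehicle library, which is what choosing the members by these ratios fixes. In the activating line, whose ratio was only limited by the rule, the sum went from 10814 ± 676 to 5782 ± 569 CPM (SD, n = 4 each). The KRT5 counts appeared in the same activating tamoxifen libraries, and their part in the members' activating values was not tested. In the parental line, which the rule did not use, it was 7735, 8270, 7731 and 8527 CPM under vehicle and 8380, 7844, 7840 and 7800 CPM under tamoxifen. The parental groups overlapped, with means of 8066 ± 399 and 7966 ± 276 CPM (SD, n = 4 each). Fewer cells of one state and less RNA per cell cannot be told apart in such bulk libraries.

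**Figure D1:**
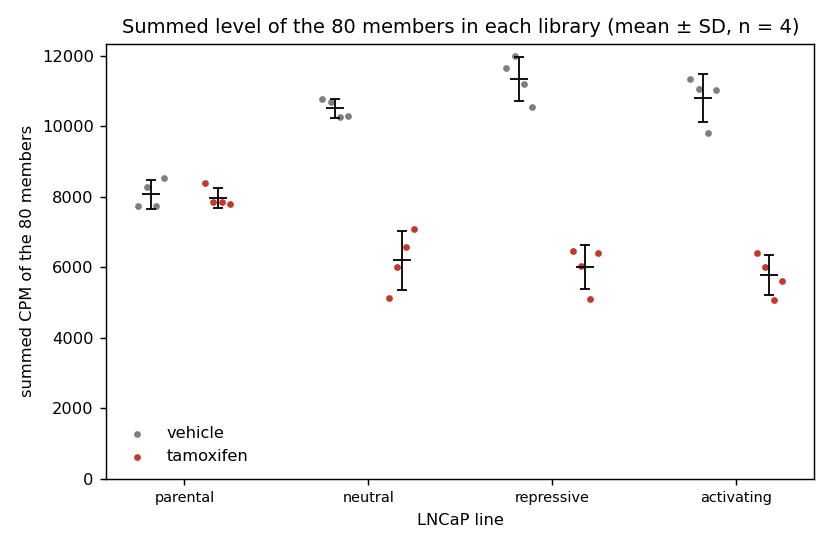
Summed CPM over the 80 members with lower counts in each library, by line, with grey points for vehicle, red points for tamoxifen and bars for the mean ± SD (n = 4). The construct lines sit between 9823 and 11992 CPM under vehicle and between 5085 and 7088 CPM under tamoxifen, and the parental groups overlap at 7731 to 8527 CPM.

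Another property of the libraries had a higher mean under tamoxifen in each construct line, though its groups overlapped in all of them. The share of counts in the 20 most abundant features was 37.1% ± 0.883, 36.8% ± 1.71 and 37.8% ± 4.18 (SD, n = 4 each) under vehicle in the neutral, repressive and activating lines and 40.8% ± 6.44, 40.6% ± 2.80 and 44.7%, with a range of 42.0% to 49%, under tamoxifen (SD, n = 4 each). In the parental line it was 34.3% ± 2.82 and 33.4% ± 0.584 (SD, n = 4 each). The neutral tamoxifen libraries had 50.4%, 38.0%, 37.7% and 36.9%, against 36.1% to 38.2% under neutral vehicle, so the higher mean there rests on the first library. The part of these shares in the members' values was not tested. Scaling by TMM moved the median log2 ratio of all 1759 features by 0.14 in the neutral, 0.17 in the repressive, 0.31 in the activating and 0.03 in the parental line. With this scaling the medians of the 80 lower members were -0.55, -0.74, -0.79 and 0.04, and 37 of the 80 still met the limits of the rule. All 80 had a log2 ratio below 0 in the neutral and repressive lines, a weaker criterion, and 66 did in the activating line.

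Over the 80 lower members the median log2 ratio was -0.70 in the neutral line, -0.91 in the repressive line and -1.10 in the activating line. Over all 1759 features the medians were -0.13, -0.09 and -0.45. The background is that 8.07% of the 1759 features had a ratio of 0.7 or less in the neutral line, 14.3% in the repressive line and 5.29% in both. The repressive ratio was below the neutral ratio for 58 of the 80, and both were 0.5 or less for 6. In the activating line 63 of the 80 had a ratio of 0.7 or less, beside 45.7% of all features. The activating ratio was 1 or more for 7 members, namely RP13-608F4.5, PHKG2, FAM160B2, C11orf83, LRRC37A2, ZSCAN30 and EMILIN3.

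**Figure D2:**
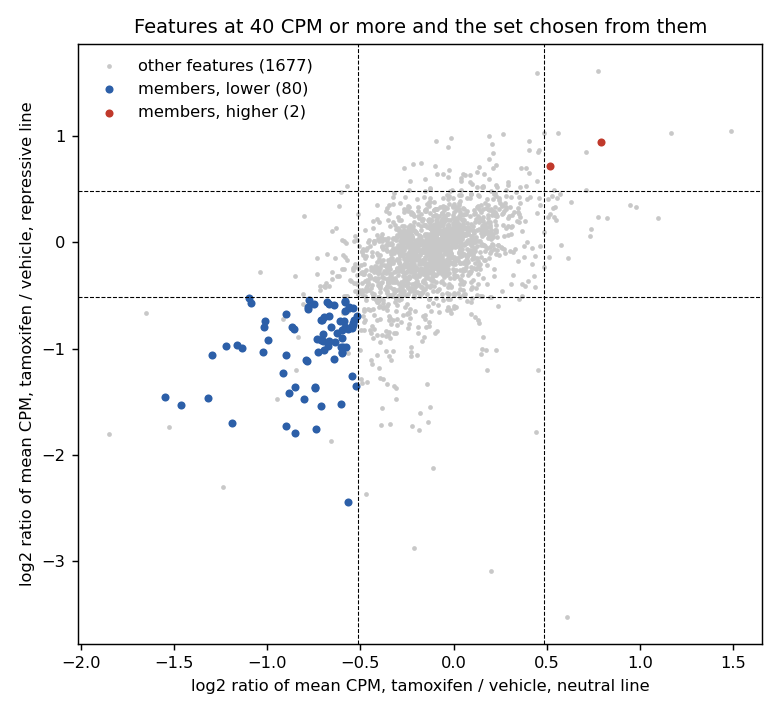
Each point is 1 of the 1759 features at 40 CPM or more, by its log2 ratio of mean CPM (tamoxifen over vehicle) in the neutral line on the x axis and in the repressive line on the y axis, with dashed lines at the ratio limits 0.7 and 1.4. The 80 lower members (blue) fill the lower left corner and the 2 higher members (red) the upper right, where 93 and 10 features met both limits.

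Members differed in how cleanly their replicates separated. All 4 tamoxifen libraries lay below all 4 vehicle libraries for 57 of the 80 lower members in the neutral line, beside 13.4% of all features. The count was 71 in the repressive line, beside 21.9%, and 60 in the activating line, beside 46.3%. For 37 members this held in all 3 construct lines, beside 4.04% of all features. EMILIN3, an extracellular matrix glycoprotein gene, was the only lower member whose activating tamoxifen libraries all lay above the vehicle libraries, at 132 ± 21.0 against 96.1 ± 11.3 CPM (SD, n = 4 each).

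CSPG4P8, CSPG4P10 and CSPG4P9 had the 3 lowest ratios of all members in the neutral line, 0.341, 0.363 and 0.401, and CSPG4P12 had 0.428. CSPG4P12, on chr15:85734669-85745240 with no exon on the opposite strand, had 556, 604, 550 and 599 CPM under neutral vehicle and 220, 253, 255 and 261 CPM under neutral tamoxifen. It had 617, 579, 520 and 480 CPM under repressive vehicle and 283, 297, 255 and 285 CPM under repressive tamoxifen. Vehicle and tamoxifen were far apart in both lines, whereas in the parental line CSPG4P12 had 267, 417, 420 and 411 CPM under vehicle and 403, 488, 438 and 404 CPM under tamoxifen, which overlapped. Summed over CSPG4P12, CSPG4P8, CSPG4P9 and CSPG4P10, the mean went from 1148 ± 81.1 to 456 ± 49 CPM in the neutral line (SD, n = 4 each), a ratio of 0.398. In the repressive line the sum went from 1127 ± 144 to 487 ± 69.5 CPM (SD, n = 4 each), a ratio of 0.432. In the activating line the sum was 1135 ± 105 and 848 ± 115 CPM (SD, n = 4 each), a ratio of 0.747. The parental sums were 743 ± 100 and 738 ± 13.7 CPM (SD, n = 4 each), a ratio of 0.993. The ratio of the summed copies was highest of the construct lines in the activating one, whereas 44 of the 80 lower members had their lowest ratio there. CSPG4 itself had a mean of 3.00 CPM.

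The single copies were less steady than their sum. CSPG4P8, on chr15:82751614-82769399, had 186, 238, 231 and 205 CPM under neutral vehicle and 19.9, 69.0, 90.9 and 114 CPM under neutral tamoxifen. CSPG4P8 in the repressive line had 224, 234, 200 and 134 CPM under vehicle and 93.6, 84.1, 46.0 and 64.4 CPM under tamoxifen. The groups did not overlap in either line, while parental tamoxifen libraries of CSPG4P8 ranged from 13.7 to 141 CPM against 117 to 205 CPM under vehicle. CSPG4P10, on chr15:83128128-83145983, had 229, 193, 104 and 173 CPM under neutral vehicle and 0, 63.5, 76.0 and 114 CPM under neutral tamoxifen, which overlapped. It had 214, 200, 181 and 183 CPM under repressive vehicle and 88.5, 70.5, 46.0 and 64.4 CPM under repressive tamoxifen, which did not. CSPG4P9, on chr15:82970479-82988374, had 186, 193, 150 and 194 CPM under neutral vehicle and 151, 63.5, 76.0 and 0 CPM under neutral tamoxifen. Its repressive libraries had 214, 200, 181 and 148 CPM under vehicle and 88.5, 70.5, 46.0 and 64.4 CPM under tamoxifen. CSPG4P9 and CSPG4P10 had equal values in several libraries, and in each library where one of them was listed at 0 the other had the highest or second highest value of its group.

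**Figure D3:**
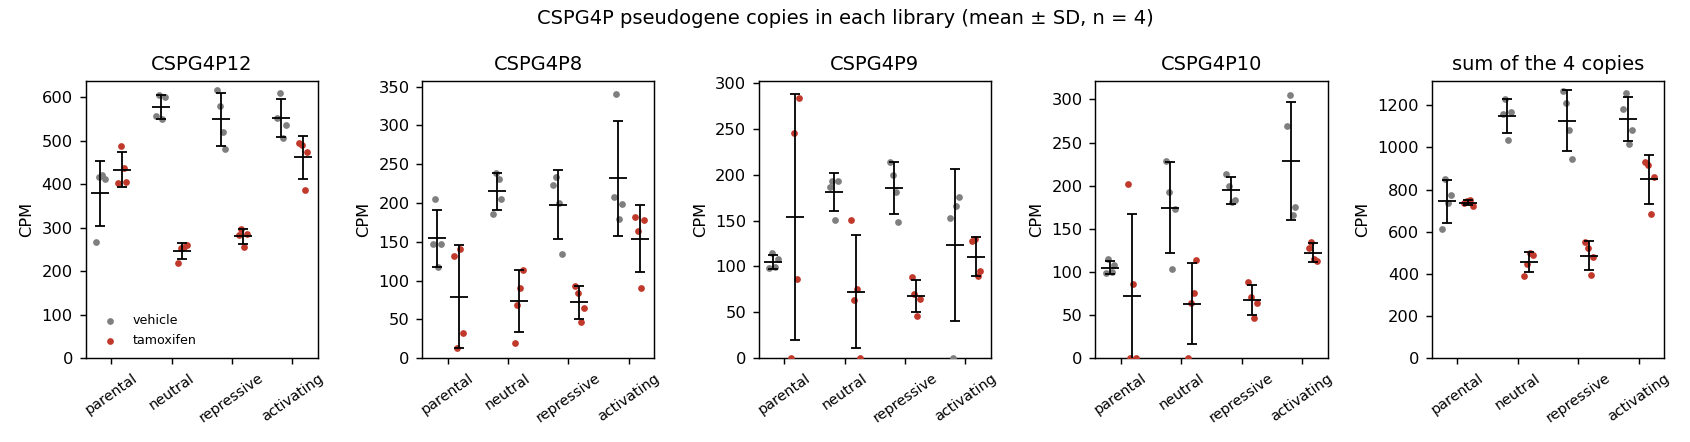
CPM values for 4 CSPG4P pseudogene copies and of their sum in each library, by line, with grey points for vehicle, red points for tamoxifen and bars for the mean ± SD (n = 4). Single copies scatter, with libraries at 0 for CSPG4P9 and CSPG4P10, while the sum separates vehicle from tamoxifen in each construct line and not in the parental line.

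Other pseudogenes were in the set as well. Of the 79 annotated members, 13 (16.5%) were pseudogenes, against 4.84% of all features at 40 CPM or more, while 48 (60.8%) were protein coding, against 62.4%. The 13 include the CSPG4P copies and RP13-608F4.5, which lies within CSPG4P9 and shares 100% of its 31-base words with other genes. They also include CICP16 and CICP27, which share 76.2% and 72.6% of theirs. Reads can be split among such members, so the 13 are not 13 separate readouts. GLYATL1P2, a pseudogene of the glycine acyltransferase family on chr11:58652420-58660933 with no exon on the opposite strand, had 61.3, 60.6, 64.0 and 62.0 CPM under neutral vehicle and 25.8, 39.4, 57.2 and 45.0 CPM under neutral tamoxifen. GLYATL1P2 in the repressive line had 82.3, 91.0, 76.5 and 105 CPM under vehicle and 10.1, 12.4, 14.5 and 28.3 CPM under tamoxifen, a ratio of 0.184 and the lowest of all members there. Its parental libraries overlapped, at 51.7 to 94.1 CPM under vehicle and 52.1 to 81.9 CPM under tamoxifen. CICP16, a processed pseudogene on chr4:119557125-119559937, had 51.3, 45.7, 43.3 and 59.6 CPM under neutral vehicle and 16.7, 30.02, 17.9 and 22.9 CPM under neutral tamoxifen. CICP16 had 58.3, 63.1, 48.9 and 55.6 CPM under repressive vehicle and 21.1, 13.5, 21.3 and 14 CPM under repressive tamoxifen. Neither pair of groups overlapped, and the related CICP14 and CICP27 were also lower members, with neutral ratios of 0.536 and 0.597 and repressive ratios of 0.479 and 0.390. CICP16 shared 76.2% of its 31-base words with other genes, so its reads may be split among copies.

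TBC1D10C, which encodes a GTPase-activating protein of the TBC family, had a different ratio in each construct line. On chr11:67171386-67177560 and overlapping 186 exonic bases of PPP1CA on the opposite strand, it had 125, 90.9, 57.3 and 96.2 CPM under neutral vehicle and 30.9, 36.0, 71.9 and 65.9 CPM under neutral tamoxifen, which overlapped. In the repressive line TBC1D10C had 133, 183, 138 and 127 CPM under vehicle and 46.7, 40.7, 43.5 and 37.3 CPM under tamoxifen. In the activating line it had 188, 117, 124 and 138 CPM under vehicle and 21.5, 17.7, 18.3 and 14.3 CPM under tamoxifen. The activating ratio of 0.127 was the lowest of the 3, and the parental values of 36.4 ± 9.05 and 42.6 ± 6.94 CPM (SD, n = 4 each) lay below every construct line's vehicle mean. RGL4, opposite GUSBP11, followed the same order, from 90.4 ± 17.9 to 54.2 ± 18 CPM in the neutral line, from 137 ± 17.1 to 40.5 ± 11.3 CPM in the repressive line and from 118 ± 8.36 to 30.1 ± 5.92 CPM in the activating line (SD, n = 4 each). GUSBP11 overlapped 52.3% of the exonic bases of RGL4 and had at most 1 count in any library under its own name. Whether the reads under RGL4 came from GUSBP11 was not tested.

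SPTB and AP1G2 differed from each other in the activating line. SPTB, the erythrocyte beta spectrin gene, went from 72.1 ± 11.8 to 29.3 ± 4.03 CPM in the neutral line and from 69.9 ± 7.74 to 33.6 ± 5.75 CPM in the repressive line (SD, n = 4 each). In the activating line SPTB was at 78.7 ± 11.2 and 74.6 ± 19.1 CPM (SD, n = 4 each), a ratio of 0.947. PLEKHG3 on its opposite strand was at 4.30 and 393 CPM there under vehicle and tamoxifen, against 5.00 and 2.82 CPM in the neutral line, and its part in the SPTB value was not tested. AP1G2, a gamma subunit of the AP-1 adaptor complex that sorts vesicle cargo, went from 257 ± 41.2 to 139 ± 27.5 CPM in the neutral line, from 326 ± 63.9 to 122 ± 23.7 CPM in the repressive line and from 308 ± 25.1 to 113 ± 21.2 CPM in the activating line (SD, n = 4 each). RP11-66N24.3 on the opposite strand of AP1G2 had 445 and 328 CPM in the neutral line.

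The remaining members with the largest changes in ratio had exons opposite other genes. CARHSP1, an RNA-binding cold shock domain gene that overlaps PMM2 on the opposite strand, went from 98.9 ± 10.4 to 34.1 ± 7.12 CPM in the repressive line (SD, n = 4 each), and PMM2 was at 56.7 and 45.8 CPM there. The pseudogene AC006111.1, which overlaps TRAP1, was lowest in the activating line, with ratios of 0.554 in the neutral, 0.391 in the repressive and 0.196 in the activating line. WDR73, a WD repeat protein gene, went from 43.4 ± 6.44 to 23.0 ± 9.30 CPM in the neutral line and from 40.01 ± 6.32 to 17.1 ± 4.83 CPM in the repressive line (SD, n = 4 each), just over the 40 CPM limit under vehicle. RP13-104F24.3 and CTD-2583A14.8 had neutral ratios of 0.536 and 0.574 and repressive ratios of 0.302 and 0.360.

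**Figure D4:**
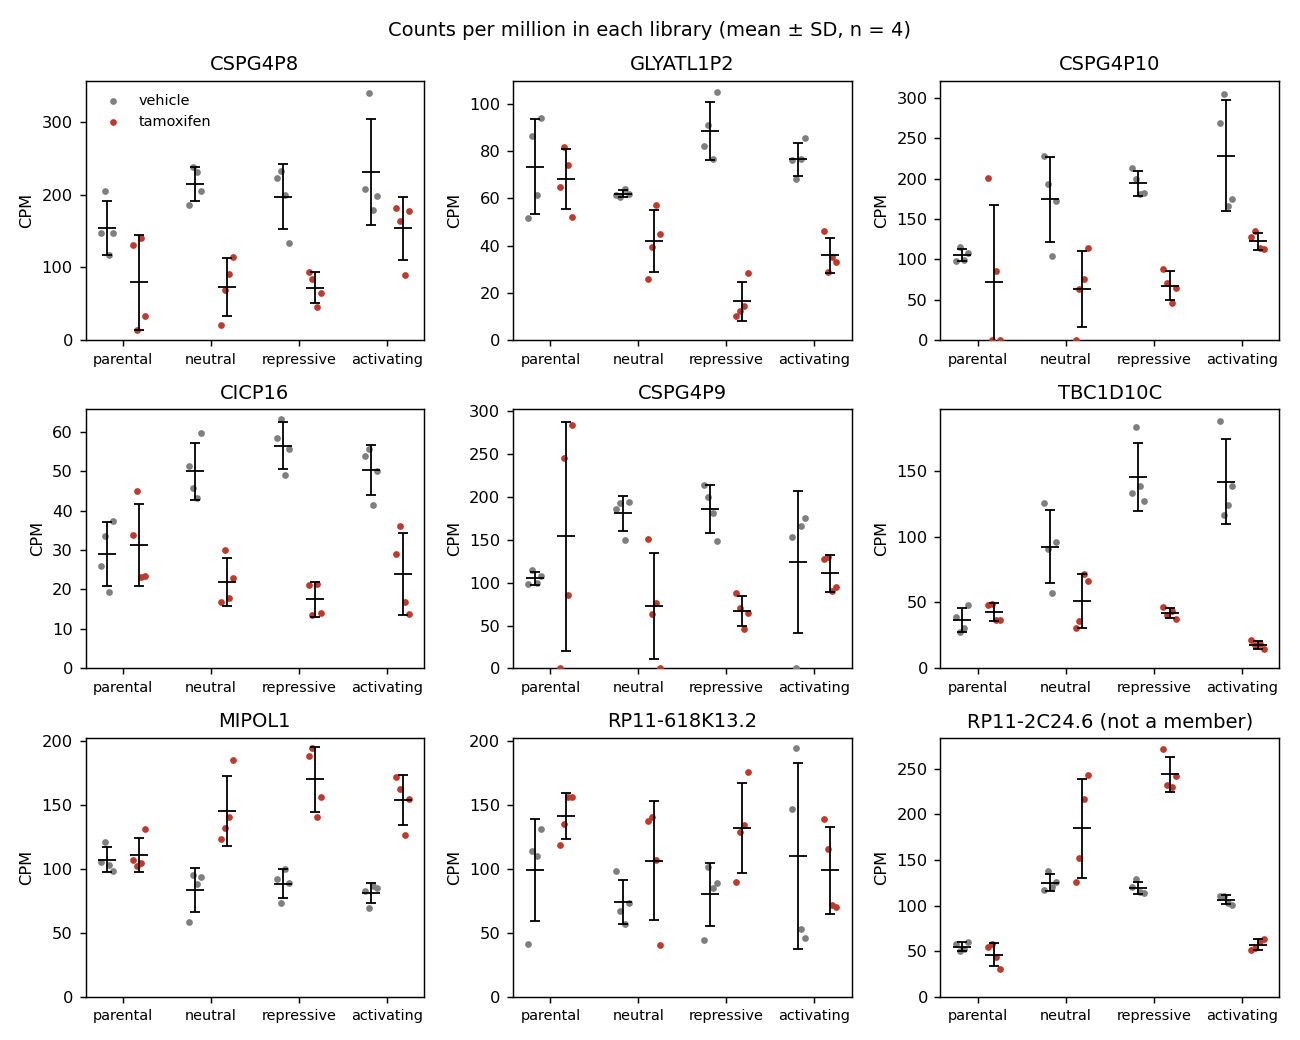
CPM in each library for the 6 lower members with the largest mean log2 ratio, the 2 higher members and RP11-2C24.6, by line, with grey points for vehicle, red points for tamoxifen and bars for the mean ± SD (n = 4). GLYATL1P2 and CICP16 separate in each construct line, MIPOL1 is higher under tamoxifen in all 3, and RP11-2C24.6 is higher with the repressive construct and lower with the activating one.

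Among the protein-coding members, several are known for basic cell functions. TOMM70A, a receptor for protein import into mitochondria with no exon on the opposite strand, went from 52.1 ± 5.78 to 28.8 ± 11.2 CPM in the neutral line and from 59.0 ± 13.6 to 33.6 ± 1.71 CPM in the repressive line (SD, n = 4 each). POM121, a nuclear pore protein gene, went from 406 ± 24.7 to 234 ± 20.5 CPM in the neutral line and from 491 ± 68.2 to 228 ± 18.1 CPM in the repressive line (SD, n = 4 each). Both had a lower ratio still in the activating line, of 0.303 and 0.366. FANCA, a DNA repair gene of the Fanconi anaemia pathway, went from 370.5 ± 18.2 to 227 ± 33.0 CPM in the neutral line and from 389 ± 17.6 to 234 ± 29.7 CPM in the repressive line (SD, n = 4 each). CNOT1, the scaffold of the CCR4-NOT deadenylase complex, had ratios of 0.627 and 0.511 in these lines. SETD6 on the opposite strand of CNOT1 was at 425 and 445 CPM under neutral vehicle and tamoxifen. It was at 423 and 447 CPM in the repressive line, and its part in the CNOT1 value was not tested. The gene opposite FANCA is the member ZNF276, and NSUN5P2 opposite POM121 is not among the counted features. LRRC8A, a subunit of the volume-regulated anion channel with no exon on the opposite strand, went from 130 ± 12.9 to 60.8 ± 15 CPM in the neutral line and from 121 ± 10.2 to 84.4 ± 12.5 CPM in the repressive line (SD, n = 4 each).

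NFATC3, a transcription factor of activated T cells, had the highest CPM of the members under vehicle, a value not scaled by gene length, at 729 ± 95.2 CPM in the neutral and 753 ± 31.2 CPM in the repressive line (SD, n = 4 each). Its ratios were 0.683 and 0.576. RP11-96D1.11 on the opposite strand of NFATC3 was at 1028 and 1064 CPM under neutral vehicle and tamoxifen. It was at 1050 and 1144 CPM in the repressive line, and its part in the NFATC3 value was not tested. The zinc finger genes ZNF276, ZNF324, ZNF140 and ZSCAN30 had neutral ratios of 0.658, 0.664, 0.678 and 0.624. Their activating ratios were further apart, at 0.102, 0.292, 0.375 and 1.18, so that ZSCAN30 alone of these stayed above 1. Genes of small GTPases or their relatives included RABL5, RAB6C and ARL10, with neutral ratios of 0.495, 0.629 and 0.688. RP11-54O7.3, with no exon on the opposite strand, had the lowest activating ratio of all members, 0.0685, from 93.0 ± 19.9 to 6.37 ± 1.47 CPM (SD, n = 4 each).

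Some members lay side by side or overlapped. Within 100000 bases of each other, the 79 annotated members formed 73 loci, of which 5 held more than 1 member. They included CSPG4P9 with RP13-608F4.5 on chromosome 15, NFATC3 with RP11-96D1.10 and ZNF276 with FANCA on chromosome 16, and CTD-2619J13.17 with ZNF324 on chromosome 19. RP13-608F4.5 lies within CSPG4P9 and RP11-96D1.10 within NFATC3, and ZNF276 and FANCA share 2409 exonic bases on opposite strands. The members of these loci may therefore not be separate readouts. In the activating line ZNF276 had a ratio of 0.102 and FANCA had 0.438. Chromosome 16 held 11 members (13.9%) and 7.94% of the annotated features at 40 CPM or more. The 11 include the overlapping pairs NFATC3 with RP11-96D1.10 and ZNF276 with FANCA. Chromosome 15 held 9 members (11.4%) and 4.66% of these features, and 4 of its members were the CSPG4P copies, whose reads are shared.

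The 2 higher members differed in how far their libraries separated. MIPOL1, a coiled-coil protein gene on chr14:37667099-38048330 with no exon on the opposite strand, had 58.6, 95.0, 88.0 and 93.7 CPM under neutral vehicle and 124, 132, 141 and 185 CPM under neutral tamoxifen. It had 92.4, 73.4, 99.9 and 88.9 CPM under repressive vehicle and 188, 195, 141 and 157 CPM under repressive tamoxifen. In the activating line MIPOL1 had 83.2, 69.6, 87.0 and 85.4 CPM under vehicle and 172, 162, 126 and 155 CPM under tamoxifen. Its groups did not overlap in any construct line, beside 1.59%, 6.94% and 13% of all features that were higher without overlap in these lines. The ratios were 1.73, 1.92 and 1.89, beside 1.93%, 3.87% and 10.6% of features at 1.4 or more, while the parental ratio was 1.04, from 107 ± 9.77 to 111 ± 13.4 CPM (SD, n = 4 each). RP11-618K13.2, a long non-coding feature lying wholly opposite MAPK8IP1, had 98.6, 67.5, 57.3 and 73.4 CPM under neutral vehicle and 137, 141, 107 and 40.2 CPM under neutral tamoxifen. RP11-618K13.2 in the repressive line had 44.8, 102, 85.0 and 88.9 CPM under vehicle and 89.7, 129, 134 and 176 CPM under tamoxifen. The groups of RP11-618K13.2 overlapped in both lines, and its parental ratio, 1.43, was as large as the neutral one, 1.43. Of the 1759 features 0.569% had both ratios at 1.4 or more.

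RP11-2C24.6 had been named as a marker of the set, but the rule did not select it. It had 117, 138, 120 and 125 CPM under neutral vehicle and 126, 153, 217 and 243 CPM under neutral tamoxifen, which overlapped. In the repressive line RP11-2C24.6 had 120, 129, 115 and 114 CPM under vehicle and 272, 232, 230 and 242 CPM under tamoxifen. Its ratios of 1.48 and 2.04 passed the limits of these lines, but in the activating line it went from 106 ± 5.10 to 57.2 ± 5.93 CPM (SD, n = 4 each), a ratio of 0.538 and on the other side. It therefore stands here as a feature that moved alike with the neutral and repressive constructs and to the other side with the activating one.

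The ratio limits divided features of like values. Just inside the lower limit, LRRC8A had ratios of 0.467 and 0.698 in the neutral and repressive lines, MIR1302-9 had 0.697 and 0.618, and CPLX1 had 0.696 and 0.391. Just outside, SQSTM1 had 0.672 and 0.704, AC104655.2 had 0.669 and 0.705, and NDRG4 had 0.708 and 0.412. Outside the higher limit, RP1-56K13.3 had 1.38 and 1.82, C1QTNF9B 1.49 and 1.37, and CAST 1.45 and 1.35.

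The parental line was the comparison that the rule left unused, and it asked whether tamoxifen moved these features in cells without a construct. All 82 members were tested among 3985 genes with edgeR's quasi-likelihood test, and 0 passed an adjusted p of 0.05, as did 0 of all genes (0%). At an unadjusted p under 0.05 there were 4 members beside 306 genes (7.68%), with 2 members higher (4.29% of genes) and 2 lower (3.39%). DESeq2 called 0 members at the adjusted threshold and 2 unadjusted, both higher (2.66%), beside 167 genes (4.19%). The 80 lower members had a median parental log2 fold change of -0.0042, with 41 below 0 and 39 above, against 0.0082 over all tested genes. By the ratio of mean CPM, 2 of the 80 were at 0.7 or less in the parental line, beside 0.625% of all features, and 1 was at 1.4 or more, beside 4.83%. These 3 were the near-identical copies CSPG4P8, CSPG4P10 and CSPG4P9, with parental ratios of 0.515, 0.684 and 1.47, and the sum over the 4 copies had a ratio of 0.993. The lowest adjusted p among members was that of ZBTB45P1, a pseudogene, at 0.36 on the log2 scale with a standard error of 0.12 (edgeR, adjusted p = 0.504), on the other side from its neutral and repressive ratios of 0.581 and 0.658. The others at an unadjusted p under 0.05 were RP11-618K13.2 with a log2 fold change of 0.49, ZNF324 with -0.52 and NFATC3 with -0.25, and edgeR gave them adjusted p-values of 0.641, 0.635 and 0.641. The median standard error of a lower member was 0.22 on the log2 scale, and with these errors changes of 0.36 to 0.52, as in ZBTB45P1 and ZNF324, did not pass the adjusted threshold.

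The members with the largest construct ratios had these parental values in edgeR's fit, all with an adjusted p above the threshold. AP1G2 had a parental log2 fold change of 0.09 (standard error 0.13), GLYATL1P2 -0.14 (standard error 0.20), CICP16 0.04 (standard error 0.28) and MIPOL1 0.05 (standard error 0.16). CSPG4P8, CSPG4P9 and CSPG4P10 had -0.92, 0.51 and -0.50, with standard errors of 0.61, 0.90 and 1.03, and CSPG4P12 had 0.18 (standard error 0.11). Among the lower members the parental tamoxifen and vehicle libraries did not overlap for ZNF324, which was lower, and for SPRN, the shadow of prion protein gene, which was higher, beside 3.98% and 2.16% of all features.

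**Figure D5:**
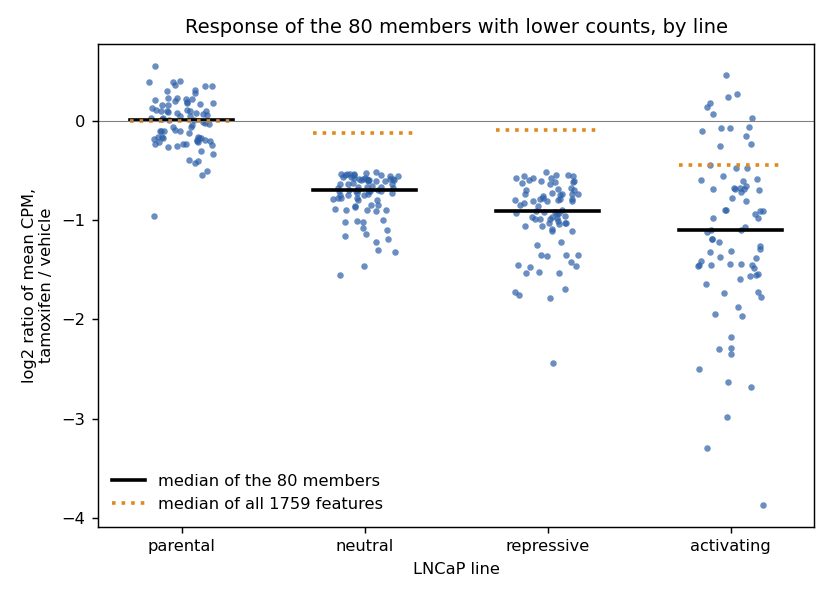
Log2 ratio of mean CPM, tamoxifen over vehicle, for each of the 80 lower members (blue points) in the 4 lines, with their median (black line) and the median of all 1759 features (dotted line). The parental points centre on 0, with a median of 0.0033, and the activating points spread most widely, from -3.87 to 0.46.

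The vehicle libraries of the construct lines also differed from the parental line in these features. The vehicle mean was above that of the parental line in all 3 construct lines for 67 of the 80 lower members, beside 34.5% of all features, and 49.1%, 50.9% and 46.5% of features were above it in the neutral, repressive and activating lines taken singly. Since a high vehicle mean lowers the ratio that chose the members, this count is a description. For 59 of the 80 the tamoxifen mean was below that of the parental tamoxifen libraries in both the neutral and the repressive line, beside 56.9% of all features. For 48 of the 80 the vehicle mean was above and the tamoxifen mean below the parental mean in both lines, beside 14.2%, and the ratios that chose the members favour this pattern. POM121 illustrates this, with 255 ± 38.7 and 256 ± 25.7 CPM in the parental line, above its tamoxifen and below its vehicle means in the neutral line (SD, n = 4 each).

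The 15 lower members without an exon on the opposite strand also had lower sums under tamoxifen in the construct lines. Their summed CPM went from 1533 ± 72.1 to 777 ± 68.3 in the neutral line, from 1585 ± 130 to 793 ± 72.4 in the repressive line and from 1562 ± 116 to 920 ± 136 in the activating line (SD, n = 4 each). In the parental line it was 1097 ± 149 and 1174 ± 56.6 (SD, n = 4 each). The groups did not overlap for 11 of these 15 in the neutral and 14 in the repressive line, beside 11.6% and 28.3% of the 198 features without such an exon. Since the same ratios chose these members, nothing is read from these counts. ACTB and LDHA, with no gene of the table opposite their exons, had only 56.2 and 9.01 CPM. The lack of such an exon thus does not show that the named gene was measured.

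Lists of known androgen receptor targets, estrogen response genes, sterol synthesis genes and unfolded protein and stress response genes had 4, 1, 0 and 2 genes at 40 CPM or more, so few could have been members, and 0 were. In the parental line 12, 2, 2 and 6 genes of these lists were tested and 0 passed an adjusted p of 0.05 in edgeR. At an unadjusted p under 0.05, 1 androgen receptor target was higher and 1 estrogen response gene was lower. Their median log2 fold changes were 0.07, -0.30, 0.07 and 0.17, against 0.0082 over all tested genes.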

How the data were processed

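RNA was sequenced from LNCaP lines with a stranded mRNA kit. The authors used the nf-core pipeline for RNA-seq with GRCh37 and deposited estimated counts per gene from Salmon 1.9.0 without normalization. The annotation release and strand setting are not given in the sources used here. All 32 columns were matched to samples by name. CPM used unrounded counts. For the parental test, estimated counts were rounded, 3985 genes passed filterByExpr over the 8 groups, and edgeR 4.0.16 in R 4.3.3 (TMM, robust quasi-likelihood fit of 8 parental libraries, Benjamini-Hochberg at 0.05) was used after it had been tested on simulated data. DESeq2 1.42.0 was an alternative. The p-values measure the spread between biological replicates. No pair of replicates agreed within sampling noise.

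The members and gene lists were chosen with earlier results of these data known. Named members were the 15 of each direction with the largest mean absolute log2 ratio of the neutral and repressive lines (6 with every library), features at the limits, opposite-strand genes and any member called. Members named for their function, position or activating value were chosen after their values were seen. Positions come from GENCODE lifted to GRCh37, which held 79 of the 82 members (not ZNHIT3, SPDYE8P or CICP14). Some members are counted in the totals but not reported here by name.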

Additional observations from a re-analysis of the deposited data

Results flagged for a closer look

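Of 104 groups of 4 libraries, 4 held a library whose gap to its nearest neighbour exceeded Dixon's critical value, and chance alone gives about 5% of groups. MIPOL1 had 131 CPM in parental tamoxifen replicate 4, against 102 to 107 CPM in the other libraries of that group. CSPG4P9 was listed at 0 CPM in activating vehicle replicate 2, against 153 to 175 CPM in the others, while CSPG4P8 and CSPG4P10 had their highest values, 341 and 305 CPM, in that library. CSPG4P12 had 267 CPM in parental vehicle replicate 1, against 411 to 420 CPM. The summed CPM of the 80 lower members was 8380 in parental tamoxifen replicate 1, against 7800 to 7844.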

How the results depend on the processing

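The number of members depended on the limits: 147 features met the rule at 20 CPM, 40 at 80 CPM, 27 at ratio limits of 0.6 and 1.6, and 16 among features without opposite-strand exons, a choice made after seeing the data. With TMM-scaled CPM 57 features met it, 39 of them members, and 20 (35.1%) were higher, against 2 of 82 (2.44%) with plain CPM. With 1 library left out the number ran from 63, without neutral tamoxifen replicate 1, to 109, without neutral tamoxifen replicate 4, and 41 members remained in all 24 settings. In the parental line 0 members passed in every alternative run. Over all genes 24 passed without a filter on low counts, 0 to 3 with 1 library left out (3 without vehicle replicate 1) and 32 with the replicate number as a block. Same-numbered parental libraries had correlations of 0.18, -0.025, 0.045 and 0.18, and 3 of 4 matched best with their own number. These few values cannot decide whether the numbers pair the samples, and the main fit used no block. With 1 parental library left out, log2 fold changes that turned sign ran from -0.052 to 0.090 for MIPOL1, -0.14 to 0.17 for CICP16, -0.033 to 0.94 for CSPG4P9, -0.26 to 0.0048 for RP13-104F24.3, -0.21 to 0.055 for CTD-2583A14.8 and -0.40 to 0.33 for WDR73, none past the threshold. The cause was not tested. At the median total 40 CPM is 26.8 counts, which limits the precision of members near that level.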
